A study of Mus musculus with 22 samples.

Results

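Mice were given diclofenac daily and their livers were taken on day 1, day 3 or day 14, so that the effect of the drug after 14 days could be set against its effect in the first days. The measure is a difference of differences. For each gene, the log2 array signal of saline livers was subtracted from that of diclofenac livers of the same day, and the mean of the day 1 and day 3 differences (the early effect) was subtracted from the day 14 difference. This value is called the contrast here, and a positive contrast means that diclofenac livers stood higher against saline livers at day 14 than they had in the first days. All 22 arrays of the series entered, and 13340 of the 18194 genes with a probe set of their own had enough signal to be tested. Every gene was examined with replicate 3 of the diclofenac day 14 livers and again without it, since this liver stood apart from the other livers.

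All mice were C57BL6 males, 8 weeks old. The treated groups received diclofenac sodium by intraperitoneal injection at 30 mg/kg, which the labels call a low dose, and the saline groups received the corresponding volume of vehicle. Each group of days 1 and 3 holds 3 arrays and each group of day 14 holds 5, each array from 1 mouse, although the labels speak of 5 animals a group. Since each liver was taken once, the contrast compares different mice and follows no animal through time. Whole liver was used, in which fewer cells of a type and less RNA per cell cannot be told apart.

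Diclofenac inhibits the cyclooxygenases, which make prostaglandins, and is cleared by the liver through cytochrome P450 oxidation and glucuronidation. A liver that meets an inflammatory signal raises the acute phase proteins through interleukin-6 and Stat3 and lowers many hepatocyte enzymes. Liver RNA also moves with feeding, with the hour of sampling and with growth hormone, and genes of these programmes are described here.

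Replicate 3 of the diclofenac day 14 group differed from its group more than any other array did. The root mean square of its residuals was 0.830 on the log2 scale over the genes tested, against 0.391 to 0.516 in the other 21 arrays. Its correlation with the other 4 livers of its group was 0.876 to 0.884 over all probe sets, against 0.899 to 0.926 for all other pairs within a group. The median SD of a gene within that group was 0.35 with this liver and 0.22 without it, against 0.18 to 0.27 in the other 5 groups. A further difference ran between days. The log2 signal of the 18S ribosomal RNA control probe sets lay between 11.68 and 12.41 at day 1, between 14.47 and 14.83 at day 3 and between 15.12 and 16.15 at day 14, the highest in replicate 3. The same contrast taken on these control probe sets was 0.38 with 22 arrays and 0.25 with 21, and that of the log2 ratio of 3′ to 5′ actin and Gapdh control signal was 0.09 and 0.10. Their part in the results was not tested. The 12 hepatocyte markers tested, which mark the labelled tissue, had a summed signal of 409219 to 517490 over the arrays of days 1 and 3. At day 14 their sum was 607705 to 816160, above all early arrays in both arms.

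With 22 arrays, 3 of 13340 genes passed the test (0.0225%, limma, adjusted p under 0.05). Fetub and Arid5b stood higher against saline at day 14 than in the first days, and Slc25a22 stood lower. Without replicate 3, 17 genes passed (0.127%), 11 with a positive and 6 with a negative contrast, and all 3 genes of the larger fit were among them. The 14 further genes are Plk3, Eva1a, Irf2, Fam214a, Snrnp48, Pik3r1, Tmie, Plcxd2 and Sox5 with a positive contrast, and Tmem120a, Clstn3, Tfdp2, Apoa4 and Tmed5 with a negative one. With each array centred on its median, 8 genes passed with a positive and 1 with a negative contrast without replicate 3, and 0 passed with all 22 arrays. The median contrast over all genes tested was -0.015 with 22 arrays and -0.011 with 21. Both counts depend on single arrays: with 22 arrays, leaving out any of 13 arrays left 0 genes past the limma test, and leaving out replicate 3 gave the 17. With 21 arrays, the lowest count, 4, came on leaving out replicate 1 of the diclofenac day 14 group and the highest, 30, without replicate 3 of the diclofenac day 1 group. At an unadjusted p under 0.05 there were 861 genes with 22 arrays and 1338 with 21. The median standard error of the contrast was 0.26 with 22 arrays and 0.23 with 21. Nothing in the labels says more of the mice of a group than that they are separate samples, and the p-values measure the spread between them.

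**Figure D1:**
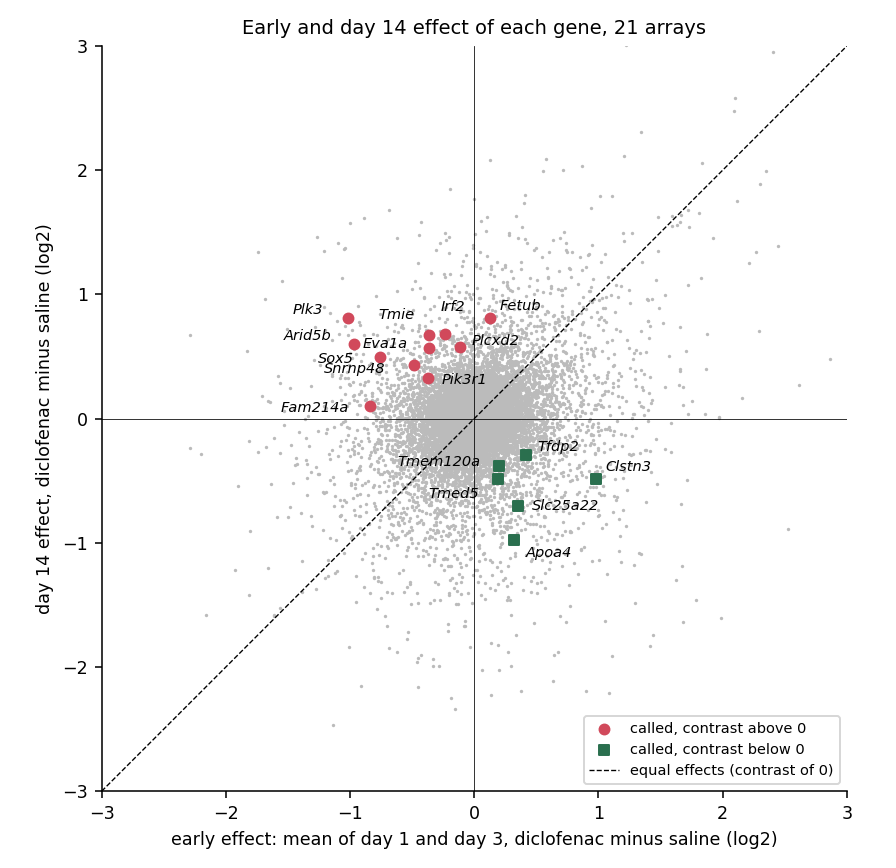
Each grey point is a gene, with the early effect on the x axis and the day 14 effect on the y axis, both as log2 diclofenac minus saline and both without replicate 3. The dashed line marks equal effects. The 11 genes called above the line lie to its upper left and the 6 called below it to its lower right, and 14 genes with an effect beyond 3 in size lie outside the plot.

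Fetub (1449555_a_at) encodes fetuin B, a plasma protease inhibitor of the cystatin superfamily that hepatocytes secrete. Its signal was 13765, 13599.5 and 13726 in the 3 saline livers of day 1 and 13707, 15868 and 14702 in the 3 diclofenac livers. At day 3 it was 15094, 13726 and 13329 in saline and 16057, 14305 and 16468 in diclofenac livers. At day 14 it was 15354, 12309.6, 13944, 14942 and 15323 in the 5 saline livers and 26623, 27286, 24126, 25506 and 21468 in the 5 diclofenac livers, in the order of their replicate numbers. Saline livers thus stayed in 1 range on all 3 days, early diclofenac livers overlapped them, and the 5 diclofenac livers of day 14 lay above every other liver of the series. The early effect was 0.13 and the day 14 effect 0.80 on the log2 scale, the latter 1.74-fold. The contrast was 0.67 (standard error 0.11, adjusted p = 0.0417, limma) and 0.68 without replicate 3 (standard error 0.11, adjusted p = 0.0154). Replicate 3 lay inside the range of the other 4 livers.

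Arid5b (1434283_at) encodes a DNA-binding protein that works with the histone demethylase Phf2. Its signal was 3757, 4783 and 3921 in saline and 2529.9, 1143 and 1947 in diclofenac livers of day 1. It was 4615, 4359 and 4848 against 2232, 2603 and 3782 at day 3. At day 14 the saline livers gave 1222, 1611, 1943, 1602 and 2066 and the diclofenac livers 3183, 2703, 2087, 2299 and 2051. On both early days all diclofenac livers lay below all saline livers, and at day 14 they lay above them save for 1 liver, the lowest diclofenac liver lying under the highest saline liver (2066). Saline livers of day 14 all stood below those of the early days, whereas diclofenac livers of day 14 stood within the early diclofenac range. The early effect was -0.97, the day 14 effect 0.55 and the contrast 1.51 (standard error 0.26, adjusted p = 0.0417, limma), or 1.57 without replicate 3 (adjusted p = 0.0163).

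Slc25a22 (1452653_at) encodes a mitochondrial glutamate carrier. Its signal was 1529, 1553 and 1548 in saline and 2147, 2629 and 2149 in diclofenac livers of day 1. At day 3 it was 2912, 2610.1 and 2725 against 3050.3, 2972 and 3024. At day 14 the 5 saline livers gave 4397, 3672, 5172, 5430.1 and 6009 and the 5 diclofenac livers 3300.5, 2396, 2034, 2804 and 3583. The groups did not overlap on any day, with diclofenac livers above saline livers on days 1 and 3 and below them on day 14. Its saline livers stood higher on each later day, and its diclofenac livers of day 14 spanned those of day 3. The contrast was -1.17 (standard error 0.19, adjusted p = 0.0417, limma) and -1.06 without replicate 3 (adjusted p = 0.0102).

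**Figure D2:**
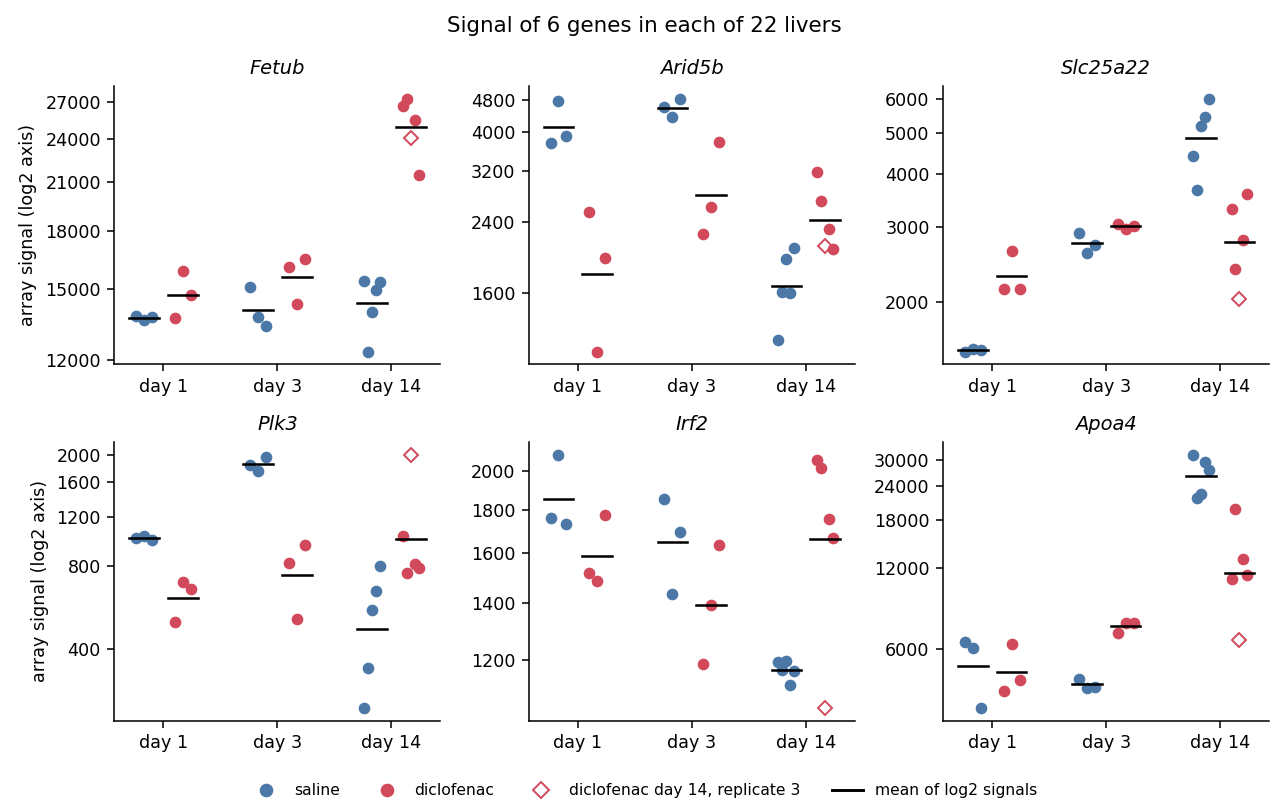
Array signal of 6 genes in each of the 22 livers by day, on a log2 axis that does not start at 0, with saline in blue, diclofenac in red, replicate 3 of the diclofenac day 14 group as an open diamond and black lines at the mean of the log2 signals. Fetub was high only in the diclofenac livers of day 14 among these groups, Arid5b, Plk3 and Irf2 were lowest on average in saline livers at day 14, and Slc25a22 and Apoa4 were highest in those saline livers.

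Among the genes called only without replicate 3, Plk3, a polo-like kinase of the stress response, had the largest positive contrast. Its signal was 1006, 1022 and 989.6 in saline and 503, 700.3 and 658 in diclofenac livers of day 1, and 1842, 1758 and 1969 against 819.9, 516 and 951 at day 3. At day 14 it was 246, 343, 554, 649 and 799.7 in saline and 1021, 750.3, 2002, 808 and 787 in diclofenac livers. Diclofenac livers lay below saline livers on both early days, and at day 14 3 of 5 lay above the highest saline liver, replicate 3 the highest. The contrast was 1.83 (standard error 0.33, adjusted p = 0.0239, limma) without replicate 3 and 2.09 (adjusted p = 0.0622) with it, where the standard error was 0.38.

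Of the regulators of transcription and splicing, Irf2, a transcription factor of the interferon regulatory family, had signals of 1192, 1166, 1196, 1119.6 and 1163 in saline and 2061, 2017, 1053, 1755 and 1669 in diclofenac livers of day 14. The saline livers were tightly grouped, 4 diclofenac livers lay above them and replicate 3 lay below them. On the early days its groups overlapped, with means of 1861 ± 198 (SD, n = 3) in saline and 1592 ± 161 (SD, n = 3) in diclofenac livers of day 1 and 1659.9 ± 211 (SD, n = 3) and 1404 ± 227 (SD, n = 3) at day 3. The contrast was 0.91 (standard error 0.14, adjusted p = 0.00810, limma) and 0.75 with all 22 arrays (adjusted p = 0.399). Sox5, a transcription factor of the SRY-related family, was at 119 to 207 in diclofenac against 205 to 323 in saline livers of day 1 and 126 to 186 against 222 to 259 at day 3. At day 14 it was 371 to 485 in 4 diclofenac livers, 67.3 in replicate 3 and 238 to 369 in saline livers, so that those 4 livers lay above all saline livers. Its contrast was 1.25 (adjusted p = 0.0391, limma) and 0.72 with replicate 3 (adjusted p = 0.881). Snrnp48, a protein of the minor spliceosome, had a contrast of 0.92 (adjusted p = 0.0239) and 0.71 with replicate 3 (adjusted p = 0.589). Tfdp2, a dimer partner of the E2F cell cycle factors, had a negative contrast, with signals of 645 to 771 against 561 to 630.0 at day 1, 658 to 866 against 479 to 591 at day 3 and 470.1 to 664 against 702 to 835 at day 14, in diclofenac and saline livers, without overlap between the groups on any day. Its contrast was -0.71 (adjusted p = 0.0413) without replicate 3 and -0.79 with it (adjusted p = 0.0636).

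Of the signalling and membrane genes, Pik3r1, the regulatory subunit of phosphoinositide 3-kinase that couples it to the insulin receptor substrates, had signals of 1080.0 to 1347 in diclofenac and 1602 to 1731 in saline livers of day 1, and 1274 to 1441 and 1546 to 1985 at day 3. At day 14 it was 1153 to 1470.2 in 4 diclofenac livers, 2899.7 in replicate 3 and 991 to 1158 in saline livers, so that diclofenac livers lay below all saline livers on both early days and overlapped them at day 14. The contrast was 0.70 (standard error 0.13, adjusted p = 0.0269, limma) and 0.92 with replicate 3 (standard error 0.22, adjusted p = 0.329). Eva1a, a membrane protein linked to autophagy, had the smallest adjusted p beside Irf2. Its signal was 4459.9, 5559.5, 4712, 4590.1 and 5806 in saline and 7147, 7952, 4714, 6908 and 7725 in diclofenac livers of day 14, in which all but replicate 3 lay above saline. The contrast was 0.94 (adjusted p = 0.00810) and 0.81 with replicate 3 (adjusted p = 0.157). Plcxd2, a gene with a phospholipase C domain, had signals of 7407 to 9053 in those 4 diclofenac livers, 5665 in replicate 3 and 4524 to 6434 in saline livers of day 14, with all values of days 1 and 3 between 8867 and 12077. Its contrast was 0.69 (adjusted p = 0.0318, limma) and 0.57 with replicate 3 (adjusted p = 0.542). Tmie, best known as a part of the hair cell transduction channel, and Fam214a were the called genes whose contrast replicate 3 altered most. Its signals were 83.3 and 357 against 553 to 746 and 3426 to 4204 in the other 4 livers. Their contrasts were 1.04 and 0.94 without it (adjusted p = 0.0281 and 0.0238) and 0.46 and 0.25 with it (adjusted p = 0.936 and 0.974).

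Of the genes with a negative contrast, Apoa4, an apolipoprotein of triglyceride-rich particles that liver makes on fasting and on lipid load, had signals of 6385, 6069 and 3654 in saline and 4211, 6275 and 4625 in diclofenac livers of day 1, and 4691, 4338 and 4384 and 6889, 7528 and 7530.2 at day 3. At day 14 they were 31212, 21615, 22414, 29296 and 27336 in saline and 10863, 19647, 6479.8, 12890.3 and 11274 in diclofenac livers. Every liver of day 14 save diclofenac replicate 3 lay above every liver of the early days, and the saline livers lay above the diclofenac livers. The contrast was -1.30 (standard error 0.23, adjusted p = 0.0239, limma) and -1.50 with replicate 3 (adjusted p = 0.0636). Clstn3, a calsyntenin adhesion protein, was at 59.0 to 60.4 in saline and 150.3 to 175 in diclofenac livers of day 3, and at 442 to 687 and 207 to 435 at day 14, so that diclofenac livers lay above saline livers and then below them without overlap. The saline signals of day 3 were below the array medians of 75.2 to 89.9, so the early effect is less certain in size. Its contrast was the largest negative among called genes, -1.47 (adjusted p = 0.0318), and -1.64 with replicate 3 (adjusted p = 0.0622). Tmem120a, a membrane protein of the nuclear envelope, was at 3910.0 to 4655 in saline and 2926 to 3517 in diclofenac livers of day 14, against 1426 to 1579.9 and 1749 to 2029 at day 1. At day 3 its groups overlapped, at 1522 to 1690 in saline and 1476 to 1863 in diclofenac livers. Its contrast was -0.58 (adjusted p = 0.0318, limma) and -0.61 with replicate 3 (adjusted p = 0.0622). Tmed5, a carrier of cargo between the endoplasmic reticulum and the Golgi apparatus, had a contrast of -0.68 (adjusted p = 0.0318) and -0.63 with replicate 3 (adjusted p = 0.157).

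**Figure D3:**
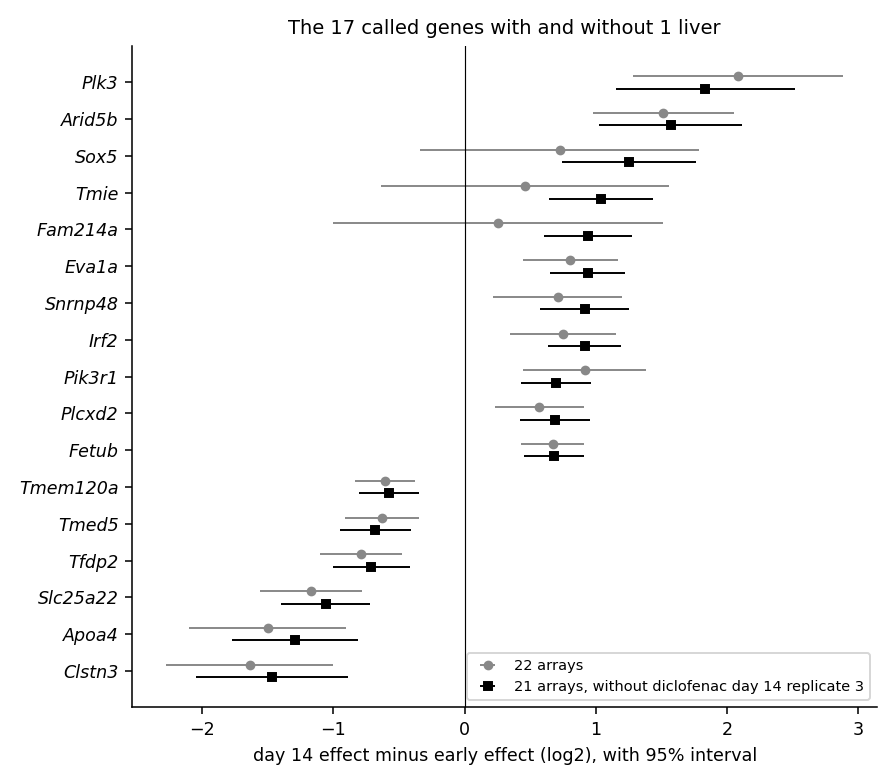
Contrast (day 14 effect minus early effect, log2) of the 17 called genes with its 95% interval from the limma fit, with 22 arrays in grey and with 21 arrays in black. All contrasts kept their sign, and the intervals of Sox5, Tmie and Fam214a with 22 arrays reach across 0.

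Of the 6 genes of smallest p in each direction with 22 arrays, Cyp2c70, Slc22a5 and Ammecr1l passed in neither fit. Cyp2c70, a hydroxylase that makes the muricholic acids of mice, had a contrast of 1.24 (standard error 0.27, adjusted p = 0.157, limma) and 1.08 without replicate 3 (adjusted p = 0.0883). Its signal was 3746, 4993, 8082, 4063 and 3825 in saline and 12116, 11077, 19358, 11281 and 9373 in diclofenac livers of day 14, and between 23657 and 38778 in all livers of the early days. All day 14 diclofenac livers lay above all saline livers of that day and below every early liver. Slc22a5, the carnitine transporter, had a contrast of -0.86 (adjusted p = 0.123) and -0.85 (adjusted p = 0.0682), and Ammecr1l one of 0.43 (adjusted p = 0.157) and 0.38 (adjusted p = 0.0767).

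The contrast can also be read within each arm, as the shift of diclofenac livers from the early days to day 14 minus the shift of saline livers. In 12 of the 17 called genes the saline shift was the larger of the 2 in size, against 48.5% of all genes tested. Apoa4 shifted by 2.44 in saline and 1.14 in diclofenac livers, Clstn3 by 2.42 and 0.96, and Tmem120a by 1.45 and 0.87 (log2, without replicate 3). In these 3 genes both arms moved up and saline livers moved further. Plk3 shifted by -1.52 in saline and 0.31 in diclofenac livers, Arid5b by -1.39 and 0.18, and Slc25a22 by 1.24 and 0.18. In these 3 genes the diclofenac livers shifted less than the saline livers. Fetub was the reverse, with a saline shift of 0.05 and a diclofenac shift of 0.73, and Eva1a, Fam214a, Sox5 and Tmie also had the larger shift in the diclofenac arm. The early and day 14 effects had opposite signs in 16 of the 17 genes, all but Fetub, against 44.0% of all genes tested. Taken singly, the day 1 and day 3 effects were both opposite in sign to the day 14 effect in 13 of the 17. These counts describe the genes and are not tests, since a gene is called for a large difference between the same values. Day 14 and the early days also differ in the 18S signal given above, and in the saline arm the day of killing and any difference in array processing between days cannot be told apart.

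**Figure D4:**
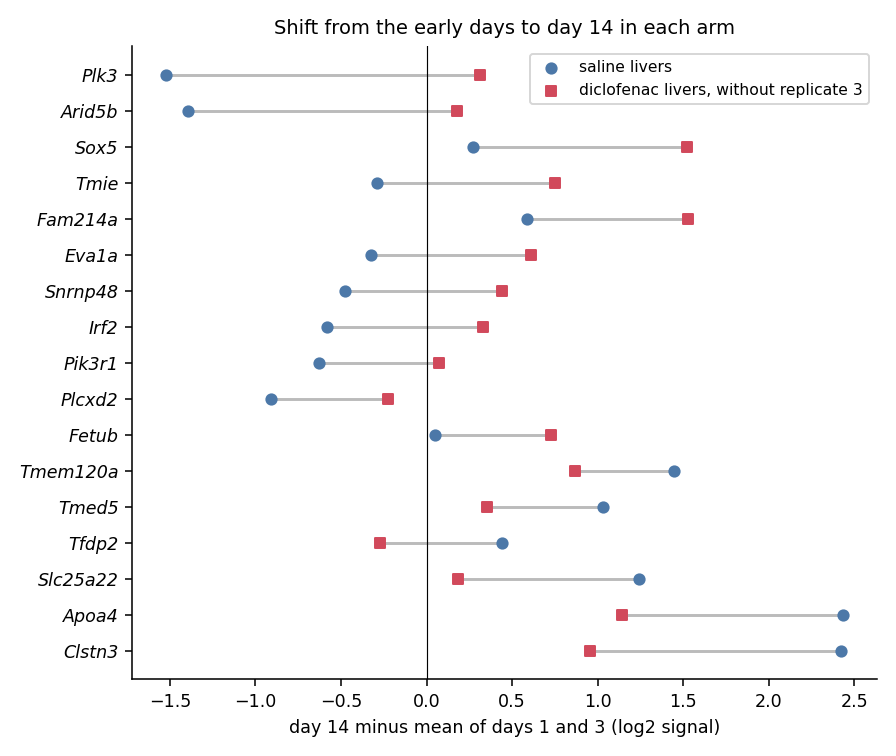
Shift of the mean log2 signal from the early days (mean of days 1 and 3) to day 14 in saline livers (circles) and in diclofenac livers without replicate 3 (squares) for the 17 called genes, with the length of each grey line equal to the size of the contrast. In 12 genes the saline point lies further from 0, and Fetub has a saline shift near 0.

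For 10 of the 17 genes the array holds 28 further probe sets. In the fit of 21 arrays, 10 of these had a contrast of the same sign at an unadjusted p under 0.05, and 6, in Arid5b, Sox5, Tfdp2 and Tmed5, had the opposite sign. The further probe sets of Apoa4, 1417761_at, and of Arid5b, 1420973_at, gave contrasts of -1.70 and 1.51, close to those above, and that of Plcxd2, 1435462_at, gave 0.67. For Tmed5, 1431789_s_at gave -0.57 and 1458962_at gave 0.61, and for Snrnp48, 1437180_at gave 0.023, so that probe sets of these genes disagreed. The probe sets used for Irf2, Snrnp48, Apoa4 and Tmie have the s or x suffix, which the maker gives to probe sets that may match more than 1 transcript. Fetub, Slc25a22, Plk3, Eva1a, Irf2, Clstn3 and Tmem120a rest on 1 probe set each.

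The effect on whole programmes was described with 46 lists of genes, 32 for pathways and 14 that mark types of cells. With 22 arrays the called genes include 1 list member (Fetub, among the negative acute phase proteins), and with 21 arrays 2 (Fetub and Plk3, the latter among targets of p53). The counts that follow are therefore at an unadjusted p under 0.05, a level that 3.10% of all genes reached with a positive and 3.35% with a negative contrast in 22 arrays, and 5.25% and 4.78% in 21 arrays. None of the members named from here on passed the test after adjustment, apart from those 2.

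In the list of acute phase proteins that inflammation raises, the early effect had a median of 0.89 and the day 14 effect a median of 1.23 over 26 genes, or 1.05 without replicate 3. The median contrast was 0.35 with 22 arrays and 0.21 with 21. At the unadjusted level, 4 members were positive and 1 negative in 22 arrays, and 2 and 1 in 21. Itih4, an inter-alpha-trypsin inhibitor heavy chain, had signals of 46716, 38224, 27749, 26415 and 33742 in saline and 88784, 62726, 117143, 57329 and 73018 in diclofenac livers of day 14, with no overlap, and a contrast of 0.69 (0.54 without replicate 3, adjusted p = 0.621 and 0.377, limma). Cp, ceruloplasmin, had one of 0.67 and 0.47 (adjusted p = 0.621 and 0.306). Orm1 and Hp, orosomucoid and haptoglobin, had contrasts of 0.64 and 0.35 with 22 arrays and 0.43 and 0.25 with 21. The negative acute phase proteins as a list had medians of 0.08 and 0.07 over 10 genes.

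Hamp, the hormone hepcidin that blocks iron export from cells, had a negative contrast. Its signal was 14409, 209, 93640.2, 3090.1 and 13968 in the 5 diclofenac livers of day 14, the third value that of replicate 3, against 57193, 41914, 53605, 44929 and 57643 in saline livers. All livers of the early days lay between 27039.5 and 54923, and the 4 other diclofenac livers of day 14 lay below all of them while replicate 3 lay above all. The contrast was -2.87 (standard error 1.27, adjusted p = 0.768, limma) and -3.83 without replicate 3 (standard error 0.99, adjusted p = 0.200). It did not pass, with a spread of 209 to 14409 among those 4 livers.

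The Stat3 feedback list had median contrasts of -0.01 and -0.17 over 17 genes, the NF-kB control list 0.27 and -0.13 over 15, chemokines 0.13 and -0.06 over 15 and leukocyte adhesion molecules 0.09 and -0.31 over 11, each given with 22 and then 21 arrays. In the last 3 the sign of the median changed with replicate 3. The Stat3 list had 2 members positive and 0 negative at the unadjusted level with 22 arrays and 2 and 3 with 21, and the NF-kB list 0 and 0, then 0 and 2. Complement components, which hepatocytes secrete, had medians of 0.25 and 0.22 over 20 genes in both fits, with 4 and then 6 members positive and 0 negative at the unadjusted level. C1s1, C8a and Cfi, a protease of the classical pathway, a part of the membrane attack complex and the protease that cleaves C3b, had contrasts of 0.34, 0.36 and 0.29 with 22 arrays and 0.34, 0.37 and 0.29 with 21. Coagulation genes had medians of 0.10 and 0.11, with 1 and then 3 of 20 positive and 0 negative, and F11, factor XI, was at 0.79 and 0.65 (adjusted p = 0.542 and 0.262, limma). Interferon-stimulated genes (-0.21 and -0.12), antigen presentation (0.11 and 0.02), matrix and repair genes (0.22 and -0.02), metal handling (0.11 and -0.17) and prostaglandin and leukotriene genes, which hold the enzymes that diclofenac inhibits (0.06 and -0.12), had median contrasts between -0.21 and 0.22.

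Fatty acid oxidation and PPARa targets held several members with a negative contrast. With 22 arrays 7 of 22 members were negative and 0 positive at the unadjusted level, and with 21 arrays again 7 and 0. The median contrast was -0.56 with replicate 3 and -0.10 without it. All 22 members had a contrast below 0 with replicate 3, and 15 were below and 7 above 0 without it. Of all genes tested, 52.1% and 51.5% were below 0. Cpt1a, the carnitine palmitoyltransferase that admits fatty acids to mitochondria, had signals of 18215, 16118, 14409, 15368 and 16332 in saline and 12842, 12853, 9070.1, 12735 and 14395 in diclofenac livers of day 14, with replicate 3 lowest and the 2 groups not overlapping. All its early values lay between 6573 and 10581. The contrast was -0.46 and -0.35 (adjusted p = 0.570 and 0.284, limma). Fgf21, a fasting hormone of the liver, had signals of 404, 902, 471, 788 and 979 in saline and 279, 176, 224, 173 and 410.4 in diclofenac livers of day 14, and a contrast of -1.77 and -1.74 (adjusted p = 0.621 and 0.369). At day 1 its signals were 17.6 to 119 in saline and 40.4 to 209 in diclofenac livers, around the array medians of 75.2 to 89.9. Its effect was 0.86 at day 1 and -0.29 at day 3, so the size of this contrast is uncertain. Cpt2 and Hadha, the inner membrane carnitine palmitoyltransferase and a subunit of the trifunctional protein of beta oxidation, had contrasts of -0.51 and -0.45 with 22 arrays and -0.35 and -0.35 with 21. In the saline livers this list shifted up by a median of 1.21 between the early days and day 14, and in diclofenac livers by 0.75 without replicate 3, against -0.06 and -0.07 over all genes.

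Mitochondrial respiration genes lay slightly below 0 as a list, at -0.20 and -0.11, with 24 of 25 members below 0 in 21 arrays, where 51.5% of all genes were. At the unadjusted level 4 and then 3 were negative and 0 positive. Atp5o and Atp5a1, subunits of the ATP synthase, had contrasts of -0.28 and -0.41 with 22 arrays and -0.28 and -0.31 with 21. Uqcrfs1 and Ndufv1, of complexes III and I, had -0.25 and -0.29, then -0.18 and -0.20. Fatty acid synthesis and elongation had medians of -0.09 and -0.06 over 17 genes, with 1 member positive and 3 negative at the unadjusted level with 22 arrays and 0 and 3 with 21. Elovl5, an elongase of polyunsaturated fatty acids, had signals of 37077, 33191, 34252, 37487 and 37767 in saline and 24792, 26587, 10827, 21598 and 27038 in diclofenac livers of day 14, without overlap, and contrasts of -0.75 and -0.50 (adjusted p = 0.599 and 0.226, limma). Fads2, the delta-6 desaturase of the same pathway, had -0.87 and -0.55. Sterol synthesis had medians of 0.10 and -0.35 over 18 genes, a change of sign with replicate 3, with 0 members past the unadjusted level with 22 arrays and 2, both negative, with 21.

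Of the bile acid list, 17 of 22 members were above 0 without replicate 3 and 5 with it, where 6467 and 6386 of all 13340 genes tested were. Without replicate 3 the median was 0.13, against -0.11 with it. Cyp39a1, Cyp8b1 and Cyp7a1, named next, were below 0 in both fits, unlike most of the list without replicate 3. Its members past the unadjusted level were 0 positive and 1 negative with 22 arrays, and 1 and 3 with 21. Cyp39a1, an oxysterol hydroxylase, had signals of 7044, 6200.4, 1509.7, 6187 and 6725 in diclofenac and 7267, 9284, 8108, 7272 and 8481 in saline livers of day 14 and contrasts of -1.10 and -0.68 (adjusted p = 0.652 and 0.200, limma). Cyp8b1, which makes cholic acid, was at 360.1 in replicate 3, 15494 to 17199 in the other 4 diclofenac livers and 19277 to 27629 in saline livers, so its contrast moved from -1.62 to -0.52. Cyp7a1, the rate-limiting enzyme of bile acid synthesis, had -1.94 and -1.08 with standard errors of 1.07 and 0.81. Its effect was -1.13 at day 1 and 1.21 at day 3, so its early effect is a mean of opposite signs. Drug-metabolizing cytochromes had medians of -0.19 and 0.10 over 27 genes, and conjugating enzymes and esterases -0.38 and 0.02 over 27. Cyp26a1, which degrades retinoic acid, had an early effect of -1.25, a day 14 effect of 0.43 without replicate 3 and contrasts of 1.37 and 1.67 (adjusted p = 0.705 and 0.271, limma). Gstm3, a glutathione transferase, had -1.07 and -0.76. NRF2 targets (-0.13 and -0.10), the ATF4 amino acid response (0.03 and -0.16), glucose and glycogen genes (-0.12 and -0.06), the urea cycle list (-0.24 and -0.06) and glucocorticoid targets (0.06 and -0.05) had medians no further from 0 than -0.24, although single members lay further out. At the unadjusted level 1 of 16 ATF4 genes was positive and 3 negative with 22 arrays, and 1 and 5 with 21. Of 20 glucocorticoid targets 3 were positive and 0 negative, then 5 and 1. The same counts were 0 and 1, then 0 and 2, of 18 NRF2 targets, 0 and 2, then 1 and 3, of 24 glucose and glycogen genes, and 0 and 1, then 0 and 0, of 19 urea cycle genes.

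The unfolded protein response, which expands the folding capacity of the endoplasmic reticulum, had 6 of 23 members positive and 0 negative at the unadjusted level with 22 arrays, and 5 and 0 with 21. Its median contrast was 0.36 and 0.24, from a median early effect of 0.03 and a day 14 effect of 0.32 without replicate 3. Sdf2l1, a chaperone cofactor, had signals of 942, 1167, 934, 1745 and 1261 in saline and 2881, 1435, 6234, 1664 and 2714 in diclofenac livers of day 14 and contrasts of 1.20 and 0.88 (adjusted p = 0.657 and 0.407, limma). Hyou1 and Herpud1, a chaperone and a protein of the degradation machinery, had 0.60 and 0.49, then 0.49 and 0.60 without replicate 3. Cytosolic heat shock genes had medians of 0.07 and 0.18 over 19 genes, with 0 members positive and 0 negative at the unadjusted level and then 2 and 1.

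Immediate early genes and MAPK feedback inhibitors had the highest median contrast of the pathway lists with 22 arrays, 0.79 over 19 genes, and 0.29 with 21. At the unadjusted level 6 members were positive and 0 negative, then 5 and 1. Spry4, which dampens signals from receptor tyrosine kinases, had an early effect of -0.88 and a day 14 effect of 0.19 without replicate 3, with contrasts of 1.23 and 1.08 (adjusted p = 0.542 and 0.284, limma). Dusp6 and Dusp1, phosphatases of MAP kinases, had 0.82 and 1.11, then 0.78 and 0.86. Ier2, an early response gene, was highest in replicate 3 at 3653 and had 0.95 and 0.61. In each of Spry4, Dusp6, Dusp1 and Ier2 the early effect was below 0. Targets of p53, the list that holds Plk3, had medians of 0.0030 and 0.03 over 16 genes.

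Of the circadian list, 2 members with 22 arrays and 4 with 21 were positive and 0 negative at the unadjusted level, with medians of 0.19 and 0.19 over 20 genes. Alas1, the first enzyme of haem synthesis and a clock output, had contrasts of 0.95 and 0.99 (adjusted p = 0.542 and 0.229, limma). Bhlhe40, a repressor in the clock, had 1.40 and 0.94, and Usp2, a deubiquitinase, 1.03 and 1.33. The hour of sampling is not given in the sources used here. The growth hormone list had medians of 0.0033 and 0.19 over 23 genes, with 2 members positive and 1 negative and then 5 and 0. Cish, a feedback inhibitor that growth hormone induces through Stat5, had signals of 1687, 1131 and 1309 in diclofenac against 2638, 2121 and 2302 in saline livers of day 1, and 361, 537, 988, 298 and 253 against 262, 166, 236, 302 and 337 at day 14. All diclofenac livers lay below all saline livers at day 1, and the groups overlapped at day 14. Its contrast was 1.40 and 1.10 (adjusted p = 0.438 and 0.200, limma). Ghr, the growth hormone receptor, had an early effect of -0.37 and a contrast of 0.37 and 0.50. Moxd1, a monooxygenase homologue counted among sex-biased liver genes, had signals of 233, 1026, 765, 289 and 54.2 in diclofenac and 11.4, 4.79, 8.28, 16.0 and 4.82 in saline livers of day 14, without overlap. Its contrast was 3.58 (standard error 1.06, adjusted p = 0.542) and 3.25. All its saline signals, and those of diclofenac livers of day 1, were below the array medians of 75.2 to 89.9, and without detection calls such values cannot be told from background, so the size of this contrast is uncertain.

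**Figure D5:**
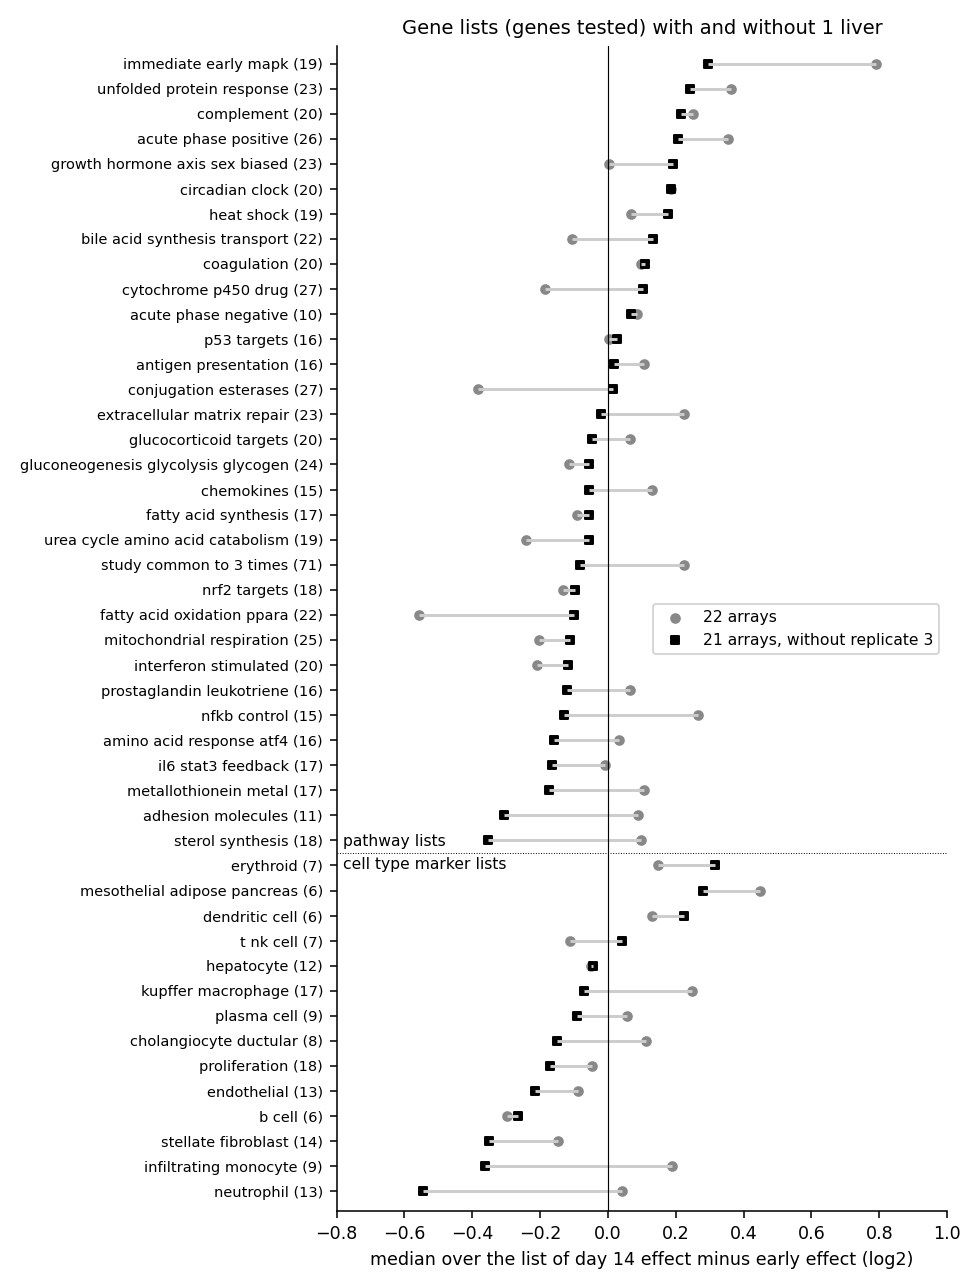
Median contrast (log2) over the tested members of each of the 46 gene lists, with 22 arrays as grey circles and with 21 arrays as black squares, and the number of genes tested in brackets. The sign of the median changed in 19 lists when 1 liver was left out, and the spread of the medians was smaller among pathway lists without it.

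Among the markers of cell types, hepatocyte markers had median contrasts of -0.05 and -0.04. Kupffer cell markers moved from 0.25 to -0.07 when replicate 3 was left out, infiltrating monocyte markers from 0.19 to -0.36 and neutrophil markers from 0.04 to -0.55. The summed signal of the Kupffer list was 104062 in replicate 3, 13926 to 20455 in the other 4 livers of its group and 8073 to 20208 in saline livers of that day. Cd14, a member of this list, alone was at 48343, 156 to 330.2 and 140 to 225 in the same groups. The summed neutrophil list was 137406, 37286 to 51710.2 and 2137 to 17643 in the same groups. Lcn2, a member of this list, alone was at 110278, 35309.5 to 50377 and 1465 to 16436, so it made up most of the sums in diclofenac livers. In saline livers the Kupffer sum was 26946 to 43077 at day 1 and 33706 to 35939 at day 3. In diclofenac livers it was 45962 to 67972 and 39745 to 56542 on those days. The neutrophil sum of days 1 and 3 was 2165 to 5896 and 1643 to 3134 in saline livers. It was 21496 to 95791 and 11510 to 38358 in diclofenac livers, so it was also above saline on the early days. Of the 17 Kupffer markers, 16 had a contrast above 0 with 22 arrays and 6 with 21, and of the 13 neutrophil markers tested 7 and 3. None of their markers on the array was below the array's median on all arrays. No member of these 4 lists passed the unadjusted level in either fit. Csf1r and Cd163, receptors of macrophages, had contrasts of 0.56 and 0.59 with 22 arrays and 0.25 and 0.13 with 21, and Ngp, a neutrophil granule gene, 1.51 and 0.82. Without replicate 3 these members went against most of their lists. Ngp signals in saline livers of day 14 were 65.4 to 93.1, around the array medians of 75.2 to 89.9, so the size of its contrast is uncertain. Endothelial markers had medians of -0.09 and -0.21 and stellate cell markers -0.15 and -0.35. The 8 other marker lists (B cells, plasma cells, T and NK cells, dendritic cells, ductular cells, erythroid cells, proliferation, and mesothelium with fat and pancreas as neighbouring tissues) had medians between -0.30 and 0.45 in 22 arrays. The 7 T and NK cell markers tested had medians of -0.11 and 0.04, with 3 above and 4 below 0 and then 4 above and 3 below, and the 6 dendritic cell markers 0.13 and 0.23, with 3 above and 3 below 0 and then 4 and 2. Of the members of smallest p in the list of T and NK cells, Thy1 and Klrk1 had contrasts of -1.92 and -1.03 with 22 arrays, and in that of dendritic cells Cd209a had -3.30 (adjusted p = 0.455, 0.676 and 0.362, limma). With 21 arrays the contrasts of Thy1, Klrk1 and Cd209a were -1.96, -0.92 and -3.18 (adjusted p = 0.246, 0.457 and 0.226, limma). Thy1 and Cd209a had signals no higher than 162 and 135 in any liver, and their lower values were below the array medians. The part of these cell types in the other results was not tested.

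A list of 74 genes that the study had picked for regulation by diclofenac at all 3 times on these same samples is no independent evidence, and is described only. Of its members 71 were tested and none passed in either fit. At the unadjusted level 3 were positive and 0 negative with 22 arrays, and 2 and 2 with 21. Their median early effect was 0.96, their median day 14 effect 1.17, or 0.82 without replicate 3, and their median contrast 0.22, or -0.08. Lcn2, the siderophore-binding lipocalin, had effects of 4.44, 4.21 and 3.91 on the 3 days with 22 arrays. Its contrast was -0.41 (95% interval -2.16 to 1.34). Without replicate 3 its day 14 effect was 3.63 and its contrast -0.70 (95% interval -2.41 to 1.02). Saa3, an acute phase amyloid protein, had a contrast of 0.50 with replicate 3 and -0.36 without it, with a signal of 89989 in that liver and 2522 to 12119 in the other 4. Atp11a, a phospholipid flippase, had signals of 1779, 670.1, 2562, 357 and 873 in diclofenac and 164, 263, 181, 167 and 145 in saline livers of day 14, without overlap, and contrasts of 1.26 and 0.91 (adjusted p = 0.771 and 0.582, limma). Ptpn1, a phosphatase of the insulin and cytokine receptors, had an early effect of 0.62 and a day 14 effect of 0.05 in the 4 livers, with contrasts of -0.20 and -0.58 (adjusted p = 0.284 without replicate 3).

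For some members replicate 3 set the sign of the contrast. Steap4, a metalloreductase, was at 71673 in replicate 3, 1523 to 4537 in the other 4 livers and 917 to 1436 in saline livers of day 14, and its contrast was 0.28 with and -0.69 without that liver. Cxcl13, a B cell chemokine, was at 19425 against 169 to 387 and 74.1 to 415, with contrasts of 0.83 and -0.42. Marco, the macrophage scavenger receptor, was at 8389.7 against 179 to 469 and 44.2 to 292, with 0.36 and -0.65. Tifa, an adaptor of NF-kB signalling, went from 0.93 to -0.13, and Sqle, squalene epoxidase of sterol synthesis, from 0.04 to -1.01. The day 14 effect of Sqle in the 4 livers was 0.18, against an early effect of 1.19, with signals of 147 to 264 in those livers and 123 to 216 in saline livers. Hsd3b5, a steroid dehydrogenase of male liver, was at 5.81 in replicate 3 and 551 to 1385 in the other 4, and had contrasts of 1.21 and 2.65 (standard errors 1.53 and 0.93). All saline livers of day 14 were low in it, at 370.0 to 547 against 13225 to 16519.8 at day 1. Ces1d, a carboxylesterase, was at 182 against 10929 to 15440.5, and its contrast went from -1.21 to 0.02.

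Across all genes tested the contrast moved by over 0.5 in 423 and by over 1 in 30 when replicate 3 was left out, and its sign changed in 2149 (16.1%). Of the 30, 14 were high and 16 low in that liver. The genes named in this paragraph other than Ces1d and Cyp8b1 were chosen after their values were seen. A2m, alpha-2-macroglobulin, moved furthest up, at 90009 in replicate 3 against 85.3 to 113 in the other 4 livers of its group. Reg3b, a secreted lectin, was at 32539.5 against 73.4 to 85.6, and Cd14, the lipopolysaccharide co-receptor, at 48343 against 156 to 330.2. Their contrasts were 1.01, 2.03 and 1.14 with 22 arrays and -0.96, 0.30 and -0.40 with 21. Il1rn, the interleukin-1 receptor antagonist, was at 19829 against 191 to 307 and Egr1, an immediate early transcription factor, at 18387 against 225 to 783. Among the 16 low in replicate 3 were the hepatocyte enzymes Ces1d, Ces1f, Car3 and Cyp8b1 and the urinary protein Mup10, at 114 for Ces1f against 5024 to 12713, 121 for Car3 against 3607 to 19171 and 37.1 for Mup10 against 1937 to 4369.6. None of A2m, Reg3b, Cd14 and the genes of the 16 passed the test in either fit.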

How the data were processed

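Whole livers of 22 mice were measured on Affymetrix Mouse 430 2.0 arrays. The authors deposited an intensity for each of 45101 probe sets, made with MAS5 per the labels' processing notes, whose version is not given in the sources used here. After removal of 2% at either end the mean was 500 on every array, with medians of 75.2 to 89.9, so no further scaling was applied. The deposited values hold no detection calls, so a low signal cannot be told from background, and the number of arrays limits the precision.

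Signals were taken to log2. Per the platform annotation, 34958 probe sets name 1 gene, 932 several and 9211 none. Each of 18194 genes (18033 under a current RefSeq symbol) was represented by its probe set of highest mean, and 13340 with a signal above the array's median on at least 3 arrays were tested with limma 3.58.1 (R 4.3.3), 1 mean per group, trended eBayes and Benjamini-Hochberg adjustment over all of them at 0.05. The procedure was tested on simulated data with a known log2 change added to the diclofenac day 14 arrays. Of genes with a change of 1, it called 45% with 22 arrays and 38% with 21. Of those with a change of 2, it called 74% with either, so a gene that did not pass may still differ. Tables were made with Python 3.11.15, pandas 2.3.3 and numpy 2.4.6 and plots with matplotlib 3.10.9. Groups follow the sample titles.

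Genes were named by rule: the 12 largest called contrasts in each direction and fit, the 6 of smallest p where fewer than 6 passed, up to 4 per list by smallest p with 22 arrays, and members of the study's list of common genes. The genes, the lists and the liver to leave out were chosen with earlier results of these data known. Alternatives changed the filter, scaling, offset, probe set rule, array weights, variance moderation, the form of the test (including a Welch form with an unadjusted threshold of 0.05 and 1.5-fold), the early day and the arrays used. Replicate numbers were used only as names: of 11 correlations between equal numbers 1 was over 0.1 (range -0.106 to 0.113).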

Additional observations from a re-analysis of the deposited data

Results flagged for a closer look

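In 17 genes the effect of diclofenac at day 14 differed from its effect on the early days by the test of the difference itself. With 22 arrays these were Fetub (contrast 0.670), Arid5b (1.51) and Slc25a22 (-1.17). Without replicate 3 of the diclofenac day 14 group, positive contrasts were added for Plk3 (1.83), Sox5 (1.25), Tmie (1.04), Fam214a (0.94), Eva1a (0.94), Snrnp48 (0.92), Irf2 (0.91), Pik3r1 (0.70) and Plcxd2 (0.69). Negative contrasts were added for Clstn3 (-1.47), Apoa4 (-1.30), Tfdp2 (-0.71), Tmed5 (-0.68) and Tmem120a (-0.58), all on the log2 scale.

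Dixon's test for a sample far from the others of its group was run on the 2 groups of day 14 in 78 genes, 156 tests, and 27 were past its 95% limit. Chance flags about 1 in 20 groups of unselected genes, but these genes were not unselected: A2m, Reg3b and Cd14 were chosen for their value in replicate 3, and 14 were called only without that liver, so the number of flags is a description and no test of it. Of the 27, 25 were replicate 3 of the diclofenac group, 14 of them high. Among secreted and immune genes its signals were high for A2m (90009), Reg3b (32539.5), Steap4 (71673), Cd14 (48343), Tifa (30528), Cxcl13 (19425), Csf1r (10597), Marco (8389.7) and Cd163 (4541). They were also high for Sqle (7526), Bhlhe40 (6612), Ier2 (3653), Pik3r1 (2899.7) and Ptpn1 (2883). They were low for the enzymes and carriers Hsd3b5 (5.81), Ces1d (182), Cyp8b1 (360.1), Cyp39a1 (1509.7), Cpt1a (9070.1), Elovl5 (10827) and Uqcrfs1 (10858). They were low too for the called genes Eva1a (4714), Fam214a (357), Tmie (83.3) and Sox5 (67.3). The other 2 were Bhlhe40 in replicate 2 of the saline group (565) and Atp5o in replicate 1 of the diclofenac group (7305).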

How the results depend on the processing

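The number of called genes depended on the processing, and the cause was not tested. With 22 arrays the 3 genes became 0 without a filter on low signal, with median centring, with the mean of all probe sets, with the adjusted Welch form and with day 1 alone or day 3 alone as the early effect (limma or Welch, 652 to 1062 genes at an unadjusted p under 0.05), 1 with quantile normalization, 14 with array weights and 267 by the Welch form with the study's thresholds. With 21 arrays the 17 genes became 9 with median centring, 9 with the mean of all probe sets, 5 with day 1 alone, 8 with day 3 alone, 0 by the adjusted Welch form (1090 at an unadjusted p under 0.05) and 379 by the Welch form with the study's thresholds. With the replicate block, for numbers that do not pair the mice, 1 gene was called in 22 arrays and 13 in 21, of which 11 were among the 17. The remaining settings stayed within 1.5 times the count given.

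Leaving out each array in turn gave 0 to 17 genes from 22 arrays, with 0 for 13 arrays (741 to 916 genes at an unadjusted p under 0.05), and 4 to 30 from 21. From 21 arrays the count moved by over 1.5 times without diclofenac day 14 replicates 1 (4), 4 (8) and 5 (11), diclofenac day 3 replicates 2 (6) and 1 (10), saline day 3 replicate 3 (7), saline day 14 replicate 5 (11) and diclofenac day 1 replicates 2 (11) and 3 (30). All 17 genes kept their sign in all 33 settings of the 21 arrays. Irf2 was called in 32 of them, Eva1a in 31, Slc25a22 in 30, Fetub, Arid5b and Fam214a in 29 each, and Sox5 and Tfdp2 in 9 each.

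In the 22-array fit, 66 of 78 genes kept the sign of their contrast in every setting run, 34 for each gene but Thy1 and Cd209a, which the filter at the 60th percentile removed and which had 33. With the mean of all probe sets Fam214a became -0.0106 and Sox5 -0.00078. With array weights Saa3 became -0.0337, Steap4 -0.57, Cxcl13 -0.37, Marco -0.37, Tifa -0.0128, Sqle -0.88 and Cd14 -0.15. With the median signal added Sqle became -0.0729, with day 3 alone Steap4 -0.14 and Sqle -0.13, and with day 1 alone Marco -0.16. Leaving out 1 array, the contrast ran from -0.77 to 0.16 for Lcn2, -0.36 to 0.93 for Saa3, -0.69 to 0.70 for Steap4, -0.42 to 1.29 for Cxcl13, -0.65 to 0.74 for Marco, -0.13 to 1.29 for Tifa, -1.01 to 0.41 for Sqle, -1.58 to 0.0189 for Ces1d, -0.40 to 1.67 for Cd14 and -0.96 to 1.88 for A2m.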
